A study of Mus musculus with 21 samples.

Results

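The 6 vehicle libraries of SMB21, a mouse medulloblastoma cell line, are described here: 3 from cells kept in DMSO for 2 h and 3 from cells kept in DMSO for 24 h. They were chosen by their labels as 6 of the 21 libraries in the series. DMSO is the solvent in which the histone deacetylase inhibitor JNJ (quisinostat) was given to the 6 treated libraries of the same 2 times, and the remaining 9 libraries came from cells carrying a hairpin against luciferase, Hdac1 or Hdac2 after puromycin selection. The vehicle cells carried no hairpin, and all came from this single line, grown in a B-27 supplemented medium; the labels do not say that replicates were cultured separately, so a p-value here weighs a difference against library-to-library spread alone, some of which may be technical. Total RNA was read as single-end, strand-marked mRNA libraries, and the level of a gene is given in CPM (reads counted in the gene per 1000000 counted in the library) on TMM-scaled library totals.

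SMB21 was established from a tumour of the sonic hedgehog group, which arises from granule neuron progenitors of the cerebellum. In those progenitors, SHH binds the receptor PTCH1 and relieves the inhibition of SMO; active SMO at the primary cilium then keeps GLI transcription factors from being processed into repressors, and GLI1 and GLI2 drive cyclins and MYCN. ATOH1 holds granule progenitors in a dividing state. Immediate-early genes such as Fos and Egr1 are transcribed within minutes of a stimulus without new protein synthesis, and serum response factor (SRF) drives many of them together with genes of the actin cytoskeleton.

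At 2 h the vehicle cells had higher counts than at 24 h in 3 rows, Lars2, Mir6236 and Rn45s, and 2 of the 3 libraries also had higher levels of Fos, Fosb, Klf2, Srf, Vcl, Lmna and Actb, and of ribosomal protein genes. The third, DMSO 2 h replicate 1, had levels of these messages near or little above those of the 24 h libraries. The edgeR fit compared all 6 vehicle libraries and took the spread of each gene from the 12 DMSO and JNJ libraries. Its quasi-likelihood test with Benjamini-Hochberg adjustment called 0 of 14467 tested genes between the times at an adjusted p under 0.05 (0%). An unadjusted p under 0.05 was reached by 1417 genes (9.79%), 735 higher at 24 h (5.08%) and 682 lower (4.71%). Fitted to the 6 vehicle libraries alone, edgeR called 0, and 1771 genes had an unadjusted p under 0.05. DESeq2 on the counts of the 12 libraries called 16 genes, 4 higher and 12 lower at 24 h. Leaving out DMSO 2 h replicate 1, edgeR called 44, of which 21 were higher and 23 lower at 24 h. Leaving out any other vehicle library, it called 0. With the replicate number as a block over the 12 libraries, it called 108, 80 higher and 28 lower at 24 h. The same block in the 6 vehicle libraries alone gave 0 calls, and whether the numbers are pairs is not known. The genes that differed most are therefore given with their levels in all 6 libraries. Where an adjusted p without DMSO 2 h replicate 1 is added, it comes from the 1 omission that gave calls. That library was the 2 h one nearest to 24 h in the messages named above. Its omission widens their differences, so a call without it is no independent evidence.

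Library totals ran from 35623027 to 39341784 counts at 2 h and from 33829963 to 37888863 at 24 h, so that 3 counts corresponded to 0.0763 to 0.0887 CPM, a limit that covers counting error only. No pair of the 6 libraries agreed within sampling noise (chi-square per degree of freedom 25.2 or more). The labels gave no batch beyond a statement that the pooled libraries were read in 2 sequencer runs, and the libraries did not part by time on the first principal component. That component held 44.4% of the variance of log2 CPM over 12227 genes, with DMSO 2 h replicates 1 and 2 at -27.8 and -11.8, DMSO 24 h replicate 2 at -35.2, and DMSO 2 h replicate 3 and DMSO 24 h replicate 3 at 50.7 and 24.2. The second component, with 34.3%, had the times on its 2 sides, from 4.67 to 41.5 at 2 h and from -35.2 to -5.72 at 24 h. Of the 15 pairs of libraries, the highest Pearson correlation of log2 CPM across genes was between DMSO 2 h replicate 1 and DMSO 24 h replicate 2, at 0.992, and not within a time. In Lars2, Mir6236 and Rn45s, DMSO 2 h replicate 1 lay above every 24 h library, as the other 2 h libraries did. These 3 rows were picked because they part the labelled times, so they are no independent evidence on which time a library came from. Whether any library was exchanged with another was not tested.

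A group of genes parted the libraries within both times. Serpinh1, which encodes the collagen chaperone HSP47, was at 27.8, 51.0 and 1.41 CPM in DMSO 2 h replicates 1 to 3 and at 0.662, 27.5 and 0.310 CPM in the DMSO 24 h replicates. Kcnj10, a potassium channel gene of glia, was at 16.8, 8.45 and 0.863 CPM at 2 h and 0.547, 13.8 and 0.508 CPM at 24 h. Fabp7, the brain fatty acid binding protein of radial glia, was at 25.9, 15.2 and 3.94 CPM at 2 h and 1.70, 21.1 and 1.95 CPM at 24 h. These genes were high in DMSO 2 h replicates 1 and 2 and DMSO 24 h replicate 2, and low in the other 3 libraries. Tecta, which encodes tectorin alpha of the inner ear, had the opposite pattern, with 0.484, 0.408 and 27.3 CPM at 2 h and 7.23, 0.388 and 40.5 CPM at 24 h. Olig1, an oligodendrocyte lineage factor, was at 1.54, 1.85 and 29.3 CPM at 2 h and 6.39, 1.60 and 40.9 CPM at 24 h. Another pattern set DMSO 2 h replicates 2 and 3 and DMSO 24 h replicate 1 apart: Atf5, a stress-induced transcription factor gene, was at 59.3, 617 and 602 CPM at 2 h and 238, 70.7 and 54.4 CPM at 24 h. Aldh1l2, of mitochondrial folate metabolism, was at 31.8, 207 and 308 CPM at 2 h and 193, 39.3 and 62.9 CPM at 24 h. These genes were chosen for their spread over the 6 libraries after their values were seen, and they carry no test of time. In bulk RNA, fewer cells that express a gene and less of its RNA per cell cannot be told apart.

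**Figure D1:**
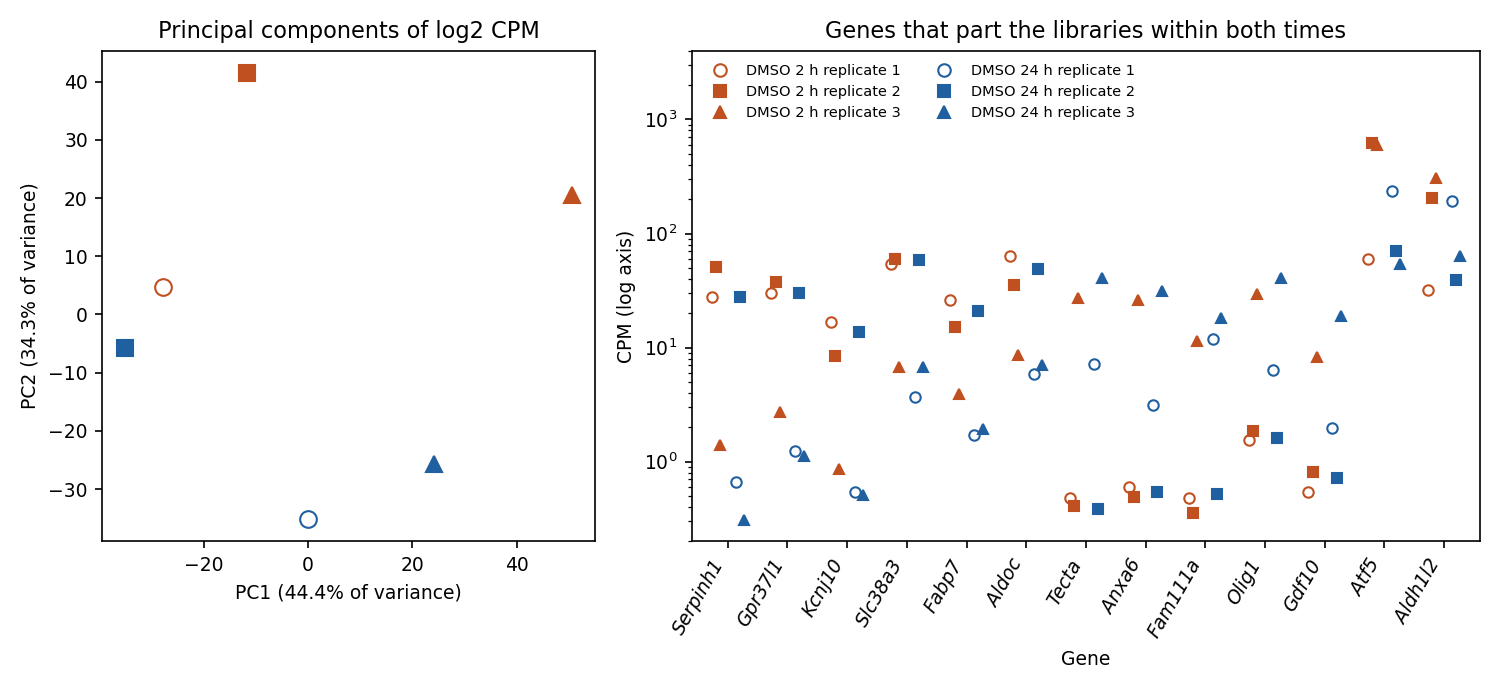
Left, first and second principal components of log2 CPM for the 6 vehicle libraries, with 44.4% and 34.3% of the variance; right, CPM on a log axis of 13 genes that part the libraries, with orange symbols for DMSO 2 h, blue for DMSO 24 h and the symbol shape for the replicate. Serpinh1 to Aldoc are high in DMSO 2 h replicates 1 and 2 and DMSO 24 h replicate 2, while Tecta, Anxa6, Olig1 and Gdf10 are highest in replicate 3 of both times.

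The line's own profile held in all 6 libraries. At least 1 CPM in every vehicle library was found for 11520 of 24047 rows (47.9%), and under 0.1 CPM in every library for 8548 (35.5%). Levels are compared between genes as CPM per kilobase of exon, the mean over the 6 libraries, with ranks among 10755 protein-coding genes of at least 1 CPM in all 6. Among the highest were messages of translation and folding: Rplp1 at 3372 CPM per kb, Eef1a1 at 2156, Rps15 at 1625 and Hsp90ab1, a cytosolic HSP90, at 1372. Actb stood at 759.6 CPM per kb and the beta tubulin gene Tubb5 at 602.

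Most granule progenitor genes were expressed, at levels that differed widely. Atoh1 was at 518, 485 and 369 CPM at 2 h and 536, 497 and 392 CPM at 24 h, or 219.8 CPM per kb, within the top 1.03% of the ranked genes. Both times overlapped, with the lowest value in replicate 3 at each. Zic1, a zinc finger factor of the cerebellar primordium, was at 559, 660.4 and 654 CPM at 2 h and 549, 519 and 598 CPM at 24 h. Nfib, a nuclear factor I gene of granule cell development, lay between 954 and 1136 CPM, and Barhl1, a homeobox gene downstream of Atoh1, between 45.2 and 97.6 CPM. Pax6, which marks the granule lineage in the mouse, was at only 7.57 to 14.5 CPM, and Neurod1, which accompanies exit from the cycle, at 29.1 to 67.0 CPM. Of the 22 members of the granule progenitor list, 21 had at least 1 CPM in all 6 libraries; 0 reached an unadjusted p under 0.05 between the times, and their median log2 difference, 24 h minus 2 h, was 0.21, against -0.01 over all tested genes. Leaving out replicate 1 of the DMSO 2 h libraries gave 0.34, and leaving out replicate 2 gave 0.14.

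Later stages were present at low or mixed levels. Gabra6, the GABA-A receptor subunit of mature granule cells, had 0 counts in all 6 libraries, below the limit of 0.0763 to 0.0887 CPM. Slc17a7, the vesicular glutamate transporter VGLUT1, was at 1.38 to 2.22 CPM, while Rbfox3, which encodes the neuronal marker NeuN, was at 50.1 to 69.5 CPM. Calb2, calretinin, was at 6.24, 73.6 and 64.7 CPM at 2 h and 22.4, 7.92 and 9.45 CPM at 24 h. Its 2 high libraries were DMSO 2 h replicates 2 and 3, and the times overlapped. With all libraries its log2 difference was -1.86 and was not called (edgeR adjusted p 0.507). It was -2.37 and called once DMSO 2 h replicate 1 was left out (edgeR adjusted p 0.038). Dcx, the microtubule protein doublecortin of migrating neurons, was at 231, 87.0 and 84.0 CPM at 2 h and 189.9, 212 and 145 CPM at 24 h. Here DMSO 2 h replicate 1 was as high as the 24 h libraries, and the difference was 0.44 with all libraries and 1.10 without that one (edgeR adjusted p 0.608 and 0.0429).

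Of neural stem genes, Nes, which encodes nestin, was at 213 to 418 CPM and Sox2 at 9.93 to 26.6 CPM, while Sox9, of stem cells and glia, was at 109, 171 and 174 CPM at 2 h and 107, 109.9 and 108 CPM at 24 h. Olig2 had 0 counts in 4 of the 6 libraries and at most 0.115 CPM. Markers of other cells ranged from 0 to high levels. None of 12 microglia and macrophage genes, 10 endothelial genes or 6 erythroid genes had 1 CPM in all 6 libraries, and their summed levels were 1.11 to 2.07, 1.89 to 12.6 and 0 to 0.115 CPM. Astrocyte and Bergmann glia genes were detected for 7 of 12 and summed to 1008 to 1197 CPM, most of it from Glul, glutamine synthetase, at 345 to 534 CPM and from Slc1a3, the glutamate transporter GLAST, at 208 to 258 CPM. Gfap was at 7.00 to 13.1 CPM and Aqp4, a water channel of mature astrocytes, at 0 to 0.256 CPM. Oligodendrocyte genes were detected for 5 of 12 and summed to 71.7 to 106 CPM, and fibroblast and pericyte genes for 4 of 12 and summed to 64.4 to 162 CPM. The libraries with high Serpinh1, DMSO 2 h replicates 1 and 2 and DMSO 24 h replicate 2, had the highest summed endothelial levels. These were 9.66, 11.9 and 12.6 CPM. Their fibroblast and pericyte sums were also the highest, at 115, 162 and 113 CPM, against 68.6, 72.9 and 64.4 CPM in the others. The part of other cells in that split was not tested.

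The markers of the medulloblastoma groups were read in the same way. The SHH group markers Atoh1, Sfrp1, Hhip, Eya1 and Pdlim3 summed to 988 to 1437 CPM at 2 h and 1258 to 1542 CPM at 24 h. Most of this came from Atoh1 and from Sfrp1, a secreted Wnt antagonist, which was at 826, 534 and 569.9 CPM at 2 h and 939.6, 697 and 823 CPM at 24 h. Hhip, a hedgehog-binding decoy receptor, was at 40.6 to 90.5 CPM, whereas Eya1 reached at most 2.53 CPM and Pdlim3 at most 1.24 CPM. The WNT group markers summed to 116 to 199 CPM, nearly all from Wif1 at 73.1 to 177 CPM and Tnc at 4.87 to 42.5 CPM, with Emx2, Gad1 and Dkk2 at most at 6.73, 0.950 and 0.777 CPM. The group 3 markers summed to 169 to 218 CPM, of which Mab21l2 made up 149 to 205 CPM and Npr3 9.27 to 24.2 CPM; Impg2, Gabra5 and Nrl stayed at or under 1.73, 0.259 and 0.169 CPM. The group 4 markers summed to 8.72 to 14.7 CPM, with Rbm24 at 4.61 to 12.7 CPM, Unc5d at 1.66 to 5.21 CPM, Eomes and Kcna1 at most at 0.345 and 0.299 CPM and Khdrbs2 at 0 counts. The SHH set was thus the highest of the 4 in each library, and it rested on 3 of its 5 genes.

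**Figure D2:**
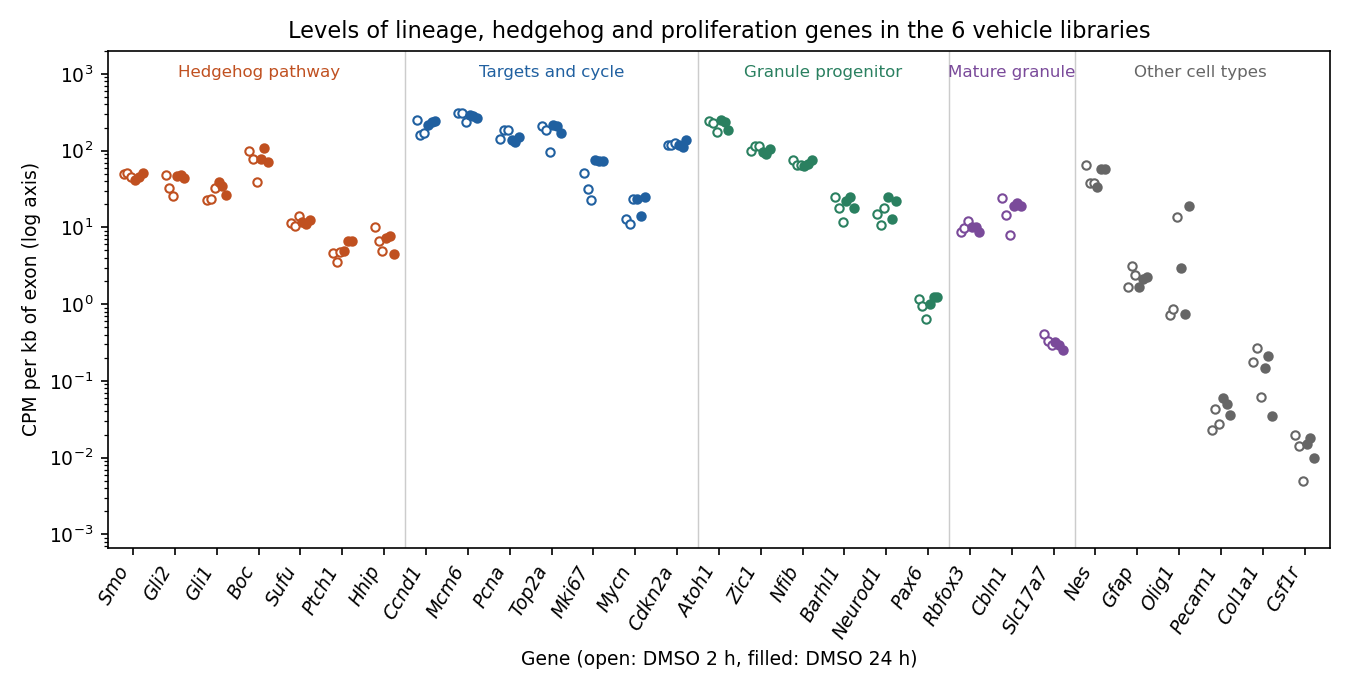
CPM per kilobase of exon on a log axis in the 6 vehicle libraries for 29 genes in 5 groups, with open circles for DMSO 2 h and filled circles for DMSO 24 h. Atoh1 (219.8 CPM per kb), Ccnd1 (213) and Mcm6 (282) stand highest, and the markers of blood vessels, fibroblasts and microglia lie lowest.

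The hedgehog pathway was expressed from receptor to targets. Shh itself was at 0.0272 to 0.129 CPM, and of 7 genes for ligands and their release 1, Scube3, passed 1 CPM in all 6 libraries. Of 23 receptor and transducer genes 21 did, and so did all 16 targets. Smo, the signalling receptor, was at 281, 286 and 253 CPM at 2 h and 232, 254 and 288 CPM at 24 h (47.3 CPM per kb), with overlapping groups. The co-receptor gene Boc was at 438, 349 and 176 CPM at 2 h and 346, 483 and 316 CPM at 24 h, far above Cdon, a related co-receptor, per length (78.9 and 0.984 CPM per kb). Sufu, which holds GLI proteins in the cytoplasm, was at 81.1 to 108 CPM. Of the GLI factors, Gli2 was at 328, 223 and 179 CPM at 2 h and 318, 329 and 298 CPM at 24 h, Gli1 at 113, 115 and 164 CPM at 2 h and 194, 173 and 132 CPM at 24 h, and Gli3 at 0 to 0.0815 CPM. Gli3, whose product acts mainly as a repressor, was thus at or near the limit of 3 counts in every library. Spop, an adaptor for GLI degradation, was listed at only 0.0564 to 0.299 CPM.

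Between the times, 3 of 22 tested receptors and transducers and 3 of 16 targets had an unadjusted p under 0.05, all with higher values at 24 h, against 5.08% of all tested genes in that direction; 0 of either list was lower. Ptch1, both receptor and target, was at 66.2, 49.5 and 67.7 CPM at 2 h and 70.8, 92.9 and 94.3 CPM at 24 h (log2 difference 0.49, SE 0.21, adjusted p 0.507). Every 24 h library was above every 2 h library, which was so for 8.94% of all tested genes. Cdk6, a G1 kinase, was at 37.8, 15.6 and 12.6 CPM at 2 h and 48.0, 39.4 and 41.5 CPM at 24 h. Its difference was 0.97 (SE 0.33, edgeR adjusted p 0.507) with all libraries, and 1.61 without DMSO 2 h replicate 1, when it was called (adjusted p 0.0229). Mycn, a GLI target and driver of these tumours, was at 42.9, 36.0 and 76.2 CPM at 2 h and 76.6, 46.0 and 81.1 CPM at 24 h, with wide overlap. Ccnd1, cyclin D1, was at 1163, 763 and 809 CPM at 2 h and 1021, 1115 and 1158 CPM at 24 h; its 2 h replicate 1 was the highest of the 6. With the exon-length trend described further on taken out, 1 receptor or transducer was higher and 1 lower, and 1 target higher. Without DMSO 2 h replicate 2, 0 members of both lists reached p under 0.05; without replicate 1 they were 6 receptors and transducers and 5 targets, and without DMSO 24 h replicate 2 or 3 they were 1 of each list, and without DMSO 24 h replicate 1, 1 receptor or transducer and 2 targets.

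Genes of transport in the primary cilium had 5 of 13 members at an unadjusted p under 0.05, all with higher values at 24 h, against 5.08% of all tested genes, and 8 with no overlap in that direction, against 8.94%. Ift88, a subunit of the anterograde train, was at 9.57, 7.96 and 8.66 CPM at 2 h and 16.6, 14.1 and 11.8 CPM at 24 h. Ift172, of the same train, was at 32.6, 25.4 and 27.4 CPM at 2 h and 45.6, 43.8 and 39.6 CPM at 24 h. Dync2h1, the motor of return transport, was at 27.1, 13.4 and 23.7 CPM at 2 h and 41.3, 33.5 and 48.5 CPM at 24 h. Rpgrip1l of the transition zone was at 23.9, 12.6 and 13.4 CPM at 2 h and 30.6, 28.9 and 25.1 CPM at 24 h. All 24 h libraries lay above all 2 h libraries in these 4 genes, with log2 differences of 0.70, 0.59, 0.94 and 0.76 and edgeR adjusted p of 0.507 each. Arl13b, a small GTPase of the ciliary membrane, had lower values at 24 h without overlap, with 52.9, 64.3 and 53.8 CPM at 2 h and 43.6, 50.9 and 37.8 CPM at 24 h. Of single libraries left out, none took the count of cilium genes below 4. These counts were taken without removing the exon-length trend described further on, on whose side long members such as Dync2h1 lay.

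Genes of the cell cycle were expressed at both times, while cycling itself was not measured. Mcm6, a subunit of the replicative helicase, was at 1436, 1438 and 1114 CPM at 2 h and 1344, 1326 and 1249 CPM at 24 h, within the top 0.772% of genes per kb. Pcna, the polymerase clamp, was at 344, 442 and 439.9 CPM at 2 h and 326, 309 and 362 CPM at 24 h. All 36 genes of the G1/S and replication list were detected, with a median log2 difference of 0.02, and 1 of them, Pole, the catalytic subunit of a replicative polymerase, had an unadjusted p under 0.05 (0.68, higher at 24 h). Among the arrest genes, Cdkn2a, which encodes p16 and ARF, was high and even at 129 to 160.4 CPM, or 121 CPM per kb, whereas its neighbour Cdkn2b had 0 counts in all 6 libraries. The p53 gene Trp53 was at 226, 275 and 329.8 CPM at 2 h and 183, 214 and 217 CPM at 24 h, without overlap (log2 difference -0.44, adjusted p 0.535). Cdkn1a, the p53 target p21, overlapped widely, with 69.8, 92.6 and 105 CPM at 2 h and 105, 59.9 and 99.3 CPM at 24 h. Hdac1 and Hdac2, the enzymes targeted elsewhere in the study, were at 87.2 to 105 CPM and at 357 to 393 CPM in the vehicle cells.

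Most mitotic genes had higher values at 24 h. Of 34 members of the G2/M and mitosis list, 30 had a positive log2 difference, 10 an unadjusted p under 0.05, all higher at 24 h, against 5.08% of all tested genes, and 18 no overlap in that direction, against 8.94%. The median was 0.31. Mki67, the proliferation antigen Ki-67, was at 521, 314 and 228 CPM at 2 h and 766, 738 and 743 CPM at 24 h (1.08, SE 0.44). Cenpe, a kinetochore motor, was at 108, 58.8 and 56.5 CPM at 2 h and 157, 142 and 175 CPM at 24 h (1.08, SE 0.40). Cenpf, a kinetochore protein, was at 284, 153 and 161 CPM at 2 h and 411, 361 and 388 CPM at 24 h. In all 3, the 24 h libraries were close together and above the 2 h ones, of which replicate 1 was nearest to them; edgeR's adjusted p was 0.507 for each. Bub1, Bub1b, Mad2l1 and Ttk of the spindle checkpoint had differences of 0.62, 0.57, 0.50 and 0.54 without overlap. The core mitotic kinase messages did not share this: Cdk1 was at 333, 409 and 364 CPM at 2 h and 374, 315 and 403 CPM at 24 h, and Plk1 at 129, 152 and 116 CPM at 2 h and 128, 124 and 149 CPM at 24 h. Top2a, the chromosome-untangling topoisomerase, was at 1865, 1675 and 861 CPM at 2 h and 1940.0, 1893 and 1521 CPM at 24 h. The count of 10 went to 0 when DMSO 2 h replicate 2 or 3 was left out, to 2 when DMSO 24 h replicate 1 or 3 was, and to 8 when DMSO 2 h replicate 1 was. It was 5 once the trend with exon length, described further on, was taken out.

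Mir6236 is shown as sequence because its row, a microRNA annotation, was among the 3 that set the times apart. The mature sequence from RefSeq (GRCm38.p6, chr9:110281353-110281371, plus strand) is 19 bases long, with the seed, bases 2 to 8, in capitals. The deposited counts were made on mm9, and the libraries were made from mRNA, so the row holds reads over the annotated locus and not a measurement of this mature form.
mmu-miR-6236: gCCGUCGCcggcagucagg

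All 3 rows were higher in each 2 h library than in any 24 h library. Mir6236 was at 329, 739.6 and 579.7 CPM at 2 h and 89.9, 47.7 and 28.9 CPM at 24 h. Lars2, the mitochondrial leucyl-tRNA synthetase gene, was at 572, 1144 and 917 CPM at 2 h and 212, 134 and 103 CPM at 24 h. Rn45s, the row of the 45S ribosomal RNA precursor, was at 945, 1681 and 1634 CPM at 2 h and 676, 624 and 543 CPM at 24 h. Within 2 h the lowest value of each was in replicate 1, and within 24 h the highest was in replicate 1. The log2 differences were -3.31 (SE 0.51) for Mir6236, -2.55 (SE 0.37) for Lars2 and -1.21 (SE 0.25) for Rn45s, and edgeR's adjusted p was 0.156, 0.137 and 0.507. Without DMSO 2 h replicate 1 they were -3.56, -2.78 and -1.42 with adjusted p of 0.0256, 0.0161 and 0.0327, and DESeq2 called all 3 with every library in (adjusted p 1.28e-09, 1.28e-09 and 0.00221).

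Summed, the 3 rows held 0.266 ± 0.0788% of library counts at 2 h and 0.0826 ± 0.0176% at 24 h (SD, n = 3 each). The difference was -0.183 percentage points, and between -0.225 and -0.147 when any 1 vehicle library was left out. These rows were picked because they part the times, so the share is a description without a test. For the same reason the adjusted p-values and calls of the single rows are no independent evidence. The inhibitor-treated libraries of the same times had like values, 0.317% at 2 h and 0.0846% at 24 h. Other mitochondrial tRNA synthetase genes did not go with Lars2. Of the 17 tested, 12 had positive differences, and Lars2 was the 1 with an unadjusted p under 0.05 and a lower value at 24 h. At that threshold 2 were higher. Over all tested genes 4.71% were lower and 5.08% higher. Iars2, for isoleucine, was at 89.0, 76.2 and 107 CPM at 2 h and 116, 88.0 and 129 CPM at 24 h. Of the other structural RNAs, Rpph1, the RNA of ribonuclease P, was at 0.741, 1.09 and 1.53 CPM at 2 h and 0.403, 0.414 and 0.226 CPM at 24 h. Rmrp, the RNA of the related mitochondrial processing enzyme, was at 0.912, 1.71 and 1.61 CPM at 2 h and 0.605, 0.259 and 0.339 CPM at 24 h. Both were lower in all 24 h libraries, at levels near 1 CPM. Of 1089 microRNA rows, 32 could be tested. At an unadjusted p under 0.05, 3 were lower, Mir6236 among them, against 4.71% of all tested genes. How reads with several matches were counted is not known from the labels or headers. Reads shared between these rows and repeated ribosomal sequence therefore cannot be told apart, and the part of ribosomal RNA left in the libraries was not tested.

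**Figure D3:**
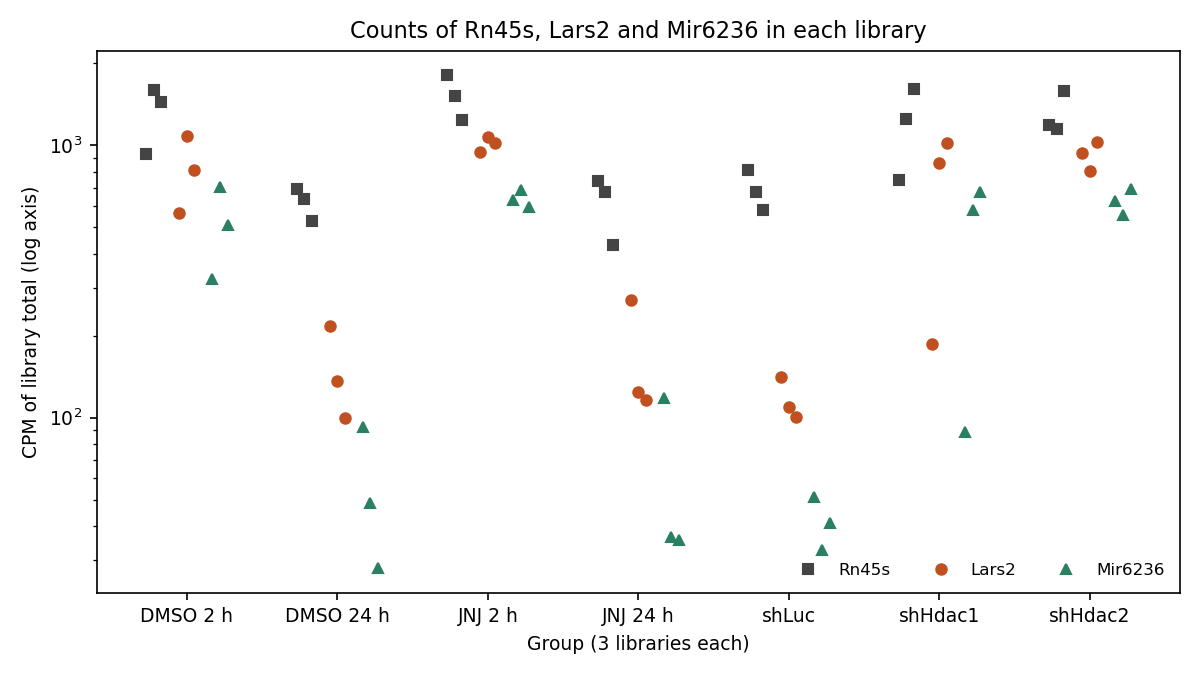
CPM of the unscaled library total, on a log axis, of Rn45s (squares), Lars2 (circles) and Mir6236 (triangles) in the 21 libraries, 3 per group. DMSO 2 h and JNJ 2 h lie above DMSO 24 h and JNJ 24 h for all 3 rows, and the shHdac1 and shHdac2 groups hold libraries as high as those of 2 h.

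Immediate-early genes had lower values at 24 h as a list, with 27 of 30 differences negative, a median of -0.79, and 13 at an unadjusted p under 0.05 and lower at 24 h, against 4.71% of all tested genes. Fos, a subunit of the AP-1 factor, was at 2.96, 17.6 and 42.2 CPM at 2 h and 1.64, 2.04 and 2.62 CPM at 24 h. Fosb, its relative, was at 1.34, 33.2 and 108 CPM at 2 h and 1.90, 1.45 and 0.988 CPM at 24 h. Klf2, a Krüppel-like factor gene, was at 2.51, 11.0 and 44.6 CPM at 2 h and 1.44, 1.48 and 1.61 CPM at 24 h. In all 3, DMSO 2 h replicate 3 was highest and replicate 2 next. Replicate 1 was nearest to the 24 h libraries, within their range for Fosb and above it for Fos and Klf2. The log2 differences were -3.31 (SE 0.69), -5.03 (SE 1.08) and -3.68 (SE 0.80), each with an adjusted p of 0.507. Without DMSO 2 h replicate 1 edgeR called all 3, at -3.82, -5.60 and -4.20 (adjusted p 0.00576, 0.00576 and 0.0229).

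Egr1, a zinc finger factor induced by growth signals, was at 5.07, 14.4 and 27.5 CPM at 2 h and 5.10, 4.76 and 6.04 CPM at 24 h. Maff, a small MAF factor, was at 3.13, 9.73 and 18.7 CPM at 2 h and 1.76, 3.86 and 2.71 CPM at 24 h. Atf3, a stress-induced factor, was at 2.65, 10.3 and 21.8 CPM at 2 h and 5.18, 3.13 and 3.81 CPM at 24 h. The same 2 libraries were high in each, and without DMSO 2 h replicate 1 Egr1 and Maff were called (adjusted p 0.0429 and 0.0459) and Atf3 was not (0.0771). The abundant members of AP-1 had smaller differences: Jund was at 141, 210.4 and 314 CPM at 2 h and 77.1, 118 and 128 CPM at 24 h, and Jun at 105, 109.6 and 174 CPM at 2 h and 81.2, 93.8 and 103 CPM at 24 h, both without overlap. Some members overlapped fully between the times, such as Ier3, at 9.57, 9.76 and 9.15 CPM at 2 h and 7.48, 10.5 and 10.7 CPM at 24 h. Myc, which is not in this list, overlapped too, with 52.4, 40.1 and 63.3 CPM at 2 h and 51.2, 52.3 and 68.6 CPM at 24 h. Nfatc2, a calcium-regulated factor named by its low p, was at 4.44, 19.2 and 18.0 CPM at 2 h and 2.42, 4.79 and 2.96 CPM at 24 h (-2.03, SE 0.44, adjusted p 0.507). The list's count of 13 was 5 without DMSO 2 h replicate 3 and 16 without replicate 1, and its median was -0.41 without replicate 3.

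SRF and the actin cytoskeleton had the same 2 libraries high. This list of 29 genes was drawn up after the values of Actb, Srf, Vcl and Lmna had been seen, so its direction is no independent evidence. Of 28 tested, 11 had an unadjusted p under 0.05, all lower at 24 h, against 4.71% of all tested genes, and the median was -0.36. Srf was at 84.0, 270.0 and 348 CPM at 2 h and 68.6, 82.3 and 81.3 CPM at 24 h. Vcl, vinculin of cell adhesions, was at 90.2, 225 and 236 CPM at 2 h and 58.9, 81.5 and 66.4 CPM at 24 h. Actb, cytoplasmic beta actin, was at 1817, 3107 and 3046 CPM at 2 h and 1237, 1551 and 1452 CPM at 24 h. All 3 were without overlap, with replicate 1 the lowest of the 2 h libraries, and their log2 differences were -1.60 (SE 0.38), -1.42 (SE 0.35) and -0.91 (SE 0.21), each with an edgeR adjusted p of 0.507. Without DMSO 2 h replicate 1 they were -1.99, -1.74 and -1.11 and were called (adjusted p 0.00576, 0.038 and 0.0334).

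Actg1, cytoplasmic gamma actin, was at 412, 635 and 653 CPM at 2 h and 279.9, 362 and 303 CPM at 24 h. Wdr1, which helps cofilin take actin filaments apart, was at 146, 209 and 254 CPM at 2 h and 117, 140.1 and 109 CPM at 24 h. Lmna, lamin A/C of the nuclear envelope, was at 84.8, 216 and 260.4 CPM at 2 h and 75.9, 79.3 and 64.5 CPM at 24 h (-1.35, SE 0.31, adjusted p 0.507, and 0.00576 without DMSO 2 h replicate 1). All 3 were higher in each 2 h library than in any at 24 h. Tpm3, a tropomyosin, overlapped, with 375, 343 and 366 CPM at 2 h and 327, 334 and 361 CPM at 24 h, and Lima1, an actin bundling gene, had a higher mean at 24 h, with 235, 172 and 109 CPM at 2 h and 185, 229 and 147 CPM at 24 h. The count of 11 was 6 when DMSO 2 h replicate 2 or DMSO 24 h replicate 1 was left out, and 7 when DMSO 24 h replicate 3 was.

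**Figure D4:**
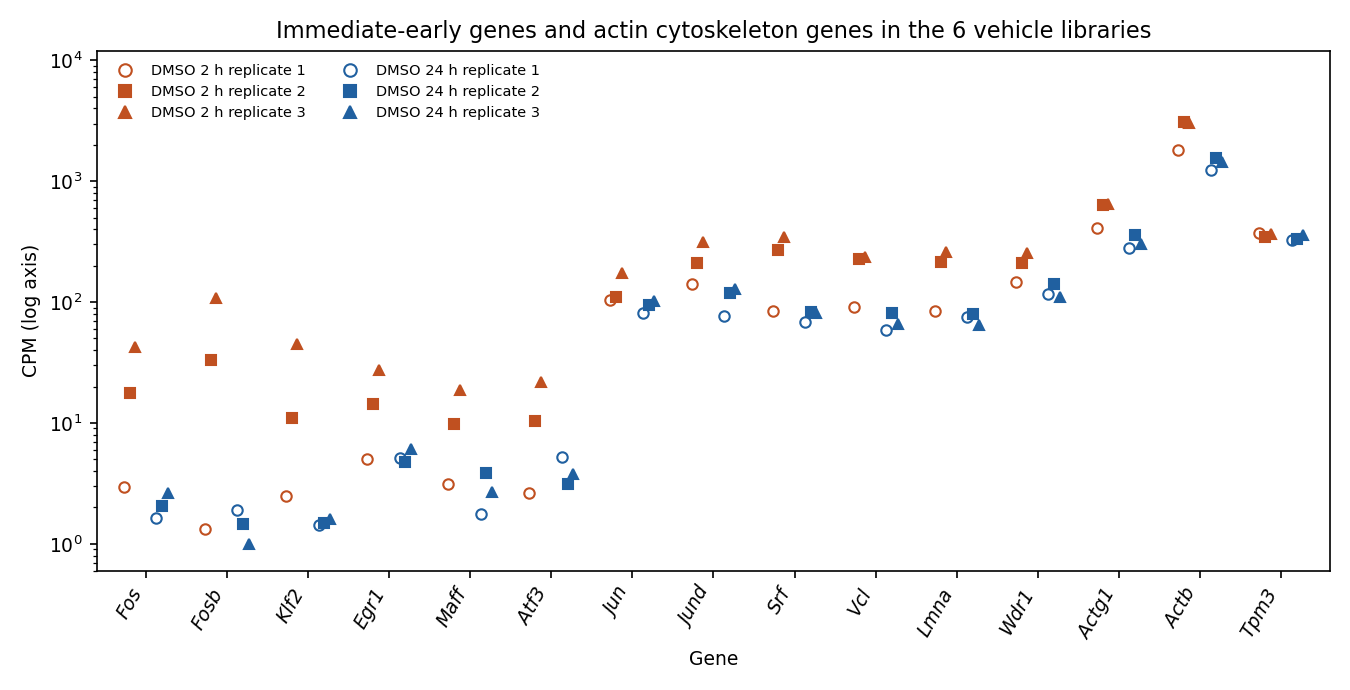
CPM on a log axis of 15 immediate-early and actin cytoskeleton genes in the 6 vehicle libraries, with orange symbols for DMSO 2 h, blue for DMSO 24 h and the symbol shape for the replicate. For Fos, Fosb, Klf2, Egr1, Srf, Vcl and Lmna, DMSO 2 h replicates 2 and 3 lie above the rest and replicate 1, the open circle, near the 24 h libraries, while Tpm3 shows no split.

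SRF binds the CArG box, a run of A and T between a pair of C and a pair of G. The windows of 250 bases before the starts of Srf and Vcl are shown because their messages were among the largest SRF-linked differences; they are from RefSeq (GRCm38.p6), Srf at chr17:46556163-46556412 on the minus strand and Vcl at chr14:20929148-20929397 on the plus strand. Capitals mark CArG boxes, which in Srf begin 82 and 62 bases before the start and in Vcl 227 bases before it.
Srf: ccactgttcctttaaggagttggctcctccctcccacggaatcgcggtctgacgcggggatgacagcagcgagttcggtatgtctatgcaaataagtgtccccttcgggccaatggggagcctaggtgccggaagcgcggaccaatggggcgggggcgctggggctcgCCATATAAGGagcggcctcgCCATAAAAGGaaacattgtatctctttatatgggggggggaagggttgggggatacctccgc
Vcl: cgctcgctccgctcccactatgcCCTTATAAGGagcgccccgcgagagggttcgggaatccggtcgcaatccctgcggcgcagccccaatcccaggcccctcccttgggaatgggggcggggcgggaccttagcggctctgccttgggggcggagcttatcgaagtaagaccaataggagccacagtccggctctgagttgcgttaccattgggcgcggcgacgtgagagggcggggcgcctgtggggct
A pattern with A or T at each middle base covers both strands, though a single box need not read the same on both. The box was searched by this pattern in the window of each gene with a RefSeq entry. It was in 378 of 27025 windows (1.4%), in 8 of the 26 windows matched to the SRF and actin list (30.8%; Actg1, Cnn2, Fhl1, Fhl2, Lima1, Myl9, Srf and Vcl) and in 2 of 24 matched to the immediate-early list (8.33%; Dusp5 and Zfp36). Of the 8, Actg1, Cnn2, Fhl2, Srf and Vcl were among the 11 with lower values at 24 h, while Fhl1, Lima1 and Myl9 were not. A match is a description of the letters in this window and not of bound SRF. The SRF and actin list was drawn up by its link to SRF and after values were seen. Its share of boxes above that of all windows is therefore no independent evidence, and neither is the split of the 8.

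The remaining genes of lowest p were higher at 24 h. Sned1, of the extracellular matrix, was at 9.83, 7.86 and 12.3 CPM at 2 h and 46.4, 33.0 and 25.8 CPM at 24 h (1.81, SE 0.34). Akna, an AT-hook protein of centrosomes, was at 58.6, 37.1 and 37.8 CPM at 2 h and 122, 98.5 and 98.6 CPM at 24 h (1.26, SE 0.29). Chd2, a chromatin remodeller, was at 91.3, 72.5 and 72.0 CPM at 2 h and 141, 127 and 113 CPM at 24 h (0.69, SE 0.15). None overlapped, edgeR's adjusted p was 0.507 for each, and DESeq2 called all 3 (0.000539, 0.0256 and 0.0146); their edgeR adjusted p without DMSO 2 h replicate 1 was 0.0784, 0.0724 and 0.0583. In Sned1 that library lay between the other 2 h libraries, unlike in the early genes. Miat and Firre, nuclear noncoding RNAs, had a wide spread at 24 h. Miat was at 24.2, 11.6 and 6.27 CPM at 2 h and 112, 70.3 and 12.5 CPM at 24 h, and Firre at 9.00, 6.85 and 4.20 CPM at 2 h and 51.6, 33.6 and 6.29 CPM at 24 h. DMSO 24 h replicate 3 lay at the 2 h level in both.

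Ribosomal protein genes mostly had lower values at 24 h. All 79 tested had negative differences, with a median of -0.59 (-0.37 without DMSO 2 h replicate 3). An unadjusted p under 0.05 was reached by 59, against 4.71% of all tested genes in that direction, and 13 had no overlap, against 8.25%. Rps14 was at 683, 1488 and 1666 CPM at 2 h and 719, 617 and 751 CPM at 24 h (-0.88, SE 0.28). Rps19 was at 378, 647 and 699 CPM at 2 h and 352, 335 and 378 CPM at 24 h (-0.70, SE 0.20). In both, DMSO 2 h replicate 1 lay within the 24 h range; edgeR's adjusted p was 0.507 with it and 0.0448 and 0.038 without it. Rpl24 did not overlap, with 364, 536 and 438 CPM at 2 h and 255, 294 and 279 CPM at 24 h. As a share of library counts, ribosomal protein genes held 4.103, 6.11 and 6.69% at 2 h and 4.05, 3.75 and 4.47% at 24 h (5.63 ± 1.36 against 4.09 ± 0.359, SD, n = 3 each; exact two-sided permutation p 0.2, where 3 against 3 cannot go below 0.1). The count of 59 depended on single libraries. Leaving out DMSO 2 h replicate 1, 2 or 3 gave 71, 23 or 14, and leaving out DMSO 24 h replicate 1, 2 or 3 gave 25, 18 or 61.

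These genes are short, and over all protein-coding genes the difference moved with exon length. Across 13140 of them, which are not independent replicates, Spearman's rho of exon length with the log2 difference was 0.32 (0.31 without ribosomal protein genes). The median difference was -0.32 in 237 genes under 1 kb and 0.17 in 2453 genes over 8 kb. Within libraries, rho of length with the deviation from the gene's mean was -0.35 and -0.20 in DMSO 2 h replicates 2 and 3, 0.13 in DMSO 2 h replicate 1 and 0.16 to 0.24 at 24 h. Long genes of the mitotic and cilium lists such as Cenpf and Dync2h1, and short ones such as the ribosomal genes, therefore lay on the side that this trend gave. With the trend taken out as an offset, an alternative added after the values were seen, the ribosomal protein median was -0.45 with 22 members lower at an unadjusted p under 0.05, and the mitotic count was 5. The part of RNA quality or library preparation in the trend was not tested.

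**Figure D5:**
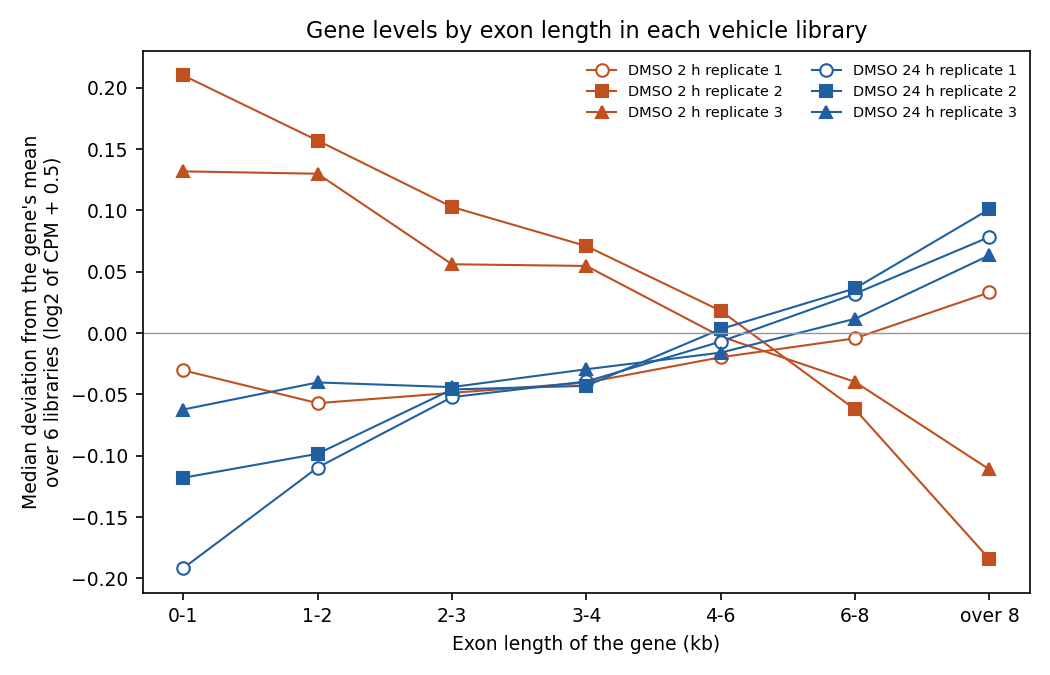
Median deviation of protein-coding genes from their own mean over the 6 vehicle libraries, in log2 of CPM plus 0.5, by exon length of the gene in kb, with 1 line per library, orange for DMSO 2 h and blue for DMSO 24 h. DMSO 2 h replicates 2 and 3 slope down with length, and the other 4 libraries, DMSO 2 h replicate 1 among them, slope up.

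Genes of the clock, of sterol synthesis and of protein folding had lower values at 24 h in part. Of 21 clock genes, 6 were lower and 1 higher at an unadjusted p under 0.05, against 4.71% and 5.08% of all tested genes. Nr1d1, the REV-ERB alpha repressor, was at 26.9, 62.0 and 46.1 CPM at 2 h and 26.1, 26.7 and 17.4 CPM at 24 h. Cry1, a repressor of the core loop, was at 48.2, 66.6 and 95.4 CPM at 2 h and 47.8, 46.1 and 42.2 CPM at 24 h. Per3 was the 1 higher, with 11.1, 7.39 and 5.70 CPM at 2 h and 15.4, 16.8 and 10.5 CPM at 24 h, and its times overlapped. Nr1d1 and Cry1 did not overlap, though DMSO 2 h replicate 1 lay next to the 24 h libraries. Nr1d1 was called without that library (adjusted p 0.0478). Leaving out DMSO 2 h replicate 1, 2 or 3 gave 10, 3 or 2 lower clock genes, and leaving out DMSO 24 h replicate 3 gave 2. The count of higher clock genes was 0 when DMSO 2 h replicate 2 or 3 or DMSO 24 h replicate 1 or 2 was left out. It was also 0 with the exon-length trend taken out. With 2 sampling times that are nearly a day apart, phase cannot be read.

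Of 29 sterol genes, 9 were lower at 24 h at an unadjusted p under 0.05, against 4.71% of all tested genes, and 0 higher. Their median was -0.35. Leaving out replicate 1 of the DMSO 24 h libraries gave -0.16, leaving out their replicate 2 gave -0.23, and leaving out replicate 3 of the DMSO 2 h libraries gave -0.19. Insig1, the sterol-sensing retention protein, was at 197, 519 and 342 CPM at 2 h and 155, 165 and 186 CPM at 24 h. Sqle, squalene epoxidase, was at 419, 687 and 528 CPM at 2 h and 264, 329 and 385 CPM at 24 h. Both were without overlap (-1.06 and -0.74, adjusted p 0.507 each). Without DMSO 2 h replicate 2, 0 sterol genes reached p under 0.05, and without DMSO 24 h replicate 1 or 2 there were 2 or 3.

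Of 22 heat shock and unfolded protein genes, 6 were lower at 24 h at an unadjusted p under 0.05, against 4.71% of all tested genes. Hspa5, the chaperone BiP of the endoplasmic reticulum, was at 629.7, 766 and 1413 CPM at 2 h and 406, 560.4 and 582 CPM at 24 h. Dnajb9, its J-protein partner, was at 27.4, 46.6 and 48.9 CPM at 2 h and 25.0, 24.2 and 25.0 CPM at 24 h. Neither overlapped, and Dnajb9 was called without DMSO 2 h replicate 1 (adjusted p 0.0478). The 6 became 1 when DMSO 2 h replicate 3 was left out and 2 when DMSO 24 h replicate 1 was. Of 24 ATF4 and amino acid stress genes, 4 were lower and 1 higher, against 4.71% and 5.08%. The higher one, Chac1, a glutathione-degrading enzyme, was at 3.53, 8.07 and 6.10 CPM at 2 h and 40.9, 6.78 and 12.2 CPM at 24 h, so its difference of 1.76 rested mostly on DMSO 24 h replicate 1. The metallothionein Mt2 was at 2.02, 17.4 and 62.0 CPM at 2 h and 16.6, 2.41 and 5.36 CPM at 24 h, and did not reach an unadjusted p under 0.05.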

How the data were processed

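The deposited table held raw counts per gene symbol, 1 column per library; per the submitters' processing notes the reads were handled with STAR 2.5.1b and mm9. The annotation used, the strand setting and the handling of multiply matching reads are unknown, being not given in the sources used here. Reads of overlapping antisense genes therefore cannot be told apart. Of 24047 rows, 14 carried date-like names and held 0.265% of counts. They stayed in the library sizes.

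Groups were taken from the labels. The main comparison, DMSO 24 h minus DMSO 2 h, was fitted in edgeR 4.0.16 (R 4.3.3) over the 12 DMSO and JNJ libraries with the group as the only term, TMM scaling, filterByExpr (minimum count 10, minimum total 15), the quasi-likelihood test and Benjamini-Hochberg adjustment over 14467 genes, with a threshold of 0.05. The common biological coefficient of variation was 0.294 and the TMM factors ran from 0.883 to 1.15. Scripts were tested on simulated data. Gene levels are CPM on TMM-scaled totals, and log2 plots used a pseudocount of 0.5 CPM. Levels per kb used the union of exons in GENCODE M21 (GRCm38), matched by symbol for 22606 rows; these lengths stand in for mm9 models. The ribosomal protein share was tested with an exact permutation test. DESeq2 1.42.0, other scalings and filters, the 6 vehicle libraries alone, a replicate block, and leaving out each library were tried as alternatives.

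The libraries compared, the gene lists and the 3 rows Lars2, Mir6236 and Rn45s were chosen with earlier results of these data known. The genes named by rule were the 12 of lowest p with a mean of at least 5 CPM, since fewer than 12 were called, plus those 3 rows, the group markers and a list of hedgehog, lineage and cycle genes for the baseline. Further members of the lists were named as examples after their values were seen, as were the genes that part the libraries. The SRF and actin list and the exon-length offset were added after the values were seen.

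The 3 replicate numbers recur in both groups. Deviations from the group means correlated, between same-numbered libraries, at -0.193, 0.527 and 0.605 over 12227 genes. Replicates 2 and 3 each correlated best with their own number, against -0.723 and -0.533 between 2 and 3. Replicate 1 did not, so the numbers were not taken as pairs in the main fit. Whether they are pairs is not known.

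Some items fixed for naming are not reported here.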

Additional observations from a re-analysis of the deposited data

Results flagged for a closer look

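The 3 rows that set the vehicle times apart were also above the luciferase hairpin libraries in the Hdac1 and Hdac2 hairpin libraries, which no comparison here uses. All values are CPM of the unscaled library total. Lars2 was at 186.9, 863.1 and 1022 in the 3 shHdac1 libraries and at 936.8, 804.6 and 1028 in the 3 shHdac2 libraries, against 141.3, 109.5 and 100.3 in shLuc. Mir6236 was at 88.76, 580.8 and 673.4 in shHdac1 and at 627.3, 555.9 and 693.6 in shHdac2, against 51.05, 32.7 and 40.88 in shLuc. Rn45s was at 1245 and 1610 in shHdac1 replicates 2 and 3 and at 1193, 1149 and 1589 in shHdac2, against 811.4, 676.7 and 578.7 in shLuc, while shHdac1 replicate 1, at 747, lay within the shLuc range. For all 3 rows shHdac1 replicate 1 was the lowest of the 6 Hdac hairpin libraries. The summed share was 0.0848% of counts in shLuc, 0.234% in shHdac1 and 0.286% in shHdac2, next to 0.0826% in DMSO 24 h and 0.266% in DMSO 2 h. These groups were not tested against each other.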

How the results depend on the processing

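The edgeR fit called 0 genes between the vehicle times. It also called 0 with RLE, upper-quartile or unscaled library totals, with a filter of 1 CPM, in the 6 vehicle libraries alone, and without the 3 rows Lars2, Mir6236 and Rn45s. Without a filter it called 2, with DESeq2 16 (3928 genes had no adjusted p), and with the exon-length trend as an offset, added after the values were seen, 2 (Lars2 and Mir6236). Leaving out single vehicle libraries gave 0 to 44 calls, the 44 without DMSO 2 h replicate 1. With the replicate block over 12 libraries 108 were called, 80 higher and 28 lower. With the block in the 6 vehicle libraries alone 0 were called. In deviations from the group means, vehicle replicates 2 and 3 correlated best with their own number, at 0.527 and 0.605. Replicate 1, at -0.193, did not, so whether the numbers are pairs is not known. The block and the fit without DMSO 2 h replicate 1 shared 10 calls, and 8 were shared with DESeq2 as well. The number at an unadjusted p under 0.05 was 1417, and 451 to 2559 when single libraries were left out. Unscaled totals moved the median log2 difference of all genes from -0.01 to 0.09 and the share of positive differences from 49.4% to 59.2%. Of the log2 differences and list medians recomputed, 1 changed sign, the G1/S median, from 0.02 to -0.02 without DMSO 24 h replicate 3. Detected rows numbered 11480 to 12123, and the difference in the summed share of the 3 rows ran from -0.225 to -0.147 percentage points. With 3 libraries a time, p-values from an exact test cannot go below 0.1.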
